A study of Mus musculus with 9 samples.

Results

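In mouse embryonic stem (ES) cells starved for 3 h of a single amino acid (AA), 80 genes carried less mRNA without threonine (Thr) and more mRNA without cysteine (Cys) than in complete medium. These 80 genes were chosen by their values in the table of normalized counts, from 20189 genes in all. A gene was included when its mean over the 9 libraries reached 200 normalized counts, its log2 ratio of Thr-starved to unstarved means was −0.5 or lower and its log2 ratio of Cys-starved to unstarved means was 0.2 or higher. In addition, all 3 Thr-starved values had to lie below, and all 3 Cys-starved values above, every unstarved value. The mean threshold was passed by 11527 genes. Of these, 1739 met the Thr conditions (15.1%), 1317 met the Cys conditions (11.4%) and 80 met both (0.694%).

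The cells were wild-type E14, a single established mouse ES cell line, so the values describe that line. The columns of the unstarved libraries carry the tag p405, which the starved columns lack and which the sources used here do not explain. A difference in the control cells beyond the starvation would enter every ratio to unstarved and cannot be told apart from it. Before starvation they were kept on gelatin in medium with 15% fetal bovine serum and leukemia inhibitory factor (LIF). Cells were then starved of Thr or of Cys or left unstarved, as the sample titles say. The labels' protocol, the same for all samples, describes SILAC medium with 5% dialyzed serum, β-mercaptoethanol and LIF but names only Arg and Leu as the AAs left out. The medium used for Thr and Cys removal in these samples is therefore not certain, and an effect of the medium cannot be told apart from that of the missing AA. Poly(A) RNA of 3 replicates per group was sequenced, and the total count per library ran from 48763102 to 74962733. All 8 ES cell markers listed for the check of cell identity were detected in every group. Their summed normalized counts per kb of exon ranged from 96208 to 98007 in Cys-starved, 101450 to 105288 in Thr-starved and 111329 to 111686 in unstarved libraries. On the same scale, 6 primitive endoderm markers summed to 59.9 to 69.8 in Thr-starved, 95.6 to 115 in Cys-starved and 75.8 to 82.7 in unstarved libraries. Sums for early mesoderm (3 genes) and fibroblasts (4 genes) were 39.2 to 41.9 and 53.3 to 59.0 in Thr-starved, 68.7 to 74.3 and 82.1 to 92.6 in Cys-starved and 65.6 to 84.6 and 93.7 to 99.6 in unstarved libraries. Sums for trophectoderm (5 genes) were 1703 to 1839, 1769 to 1888 and 1905 to 2043 in Thr-starved, Cys-starved and unstarved libraries, and those for neural progenitors (3 genes) were 511 to 527, 483 to 504 and 423 to 432. Neural progenitor sums were thus higher, and ES cell, trophectoderm and fibroblast sums lower, in both starved groups without overlap. Single markers did not all follow their sums. Without Thr, the edgeR test described below called 2 primitive endoderm genes higher and 1 lower (median log2 change 0.24). For early mesoderm it called 1 higher and 1 lower (0.29). ES cell genes had 3 higher and 5 lower, and trophectoderm genes 1 and 3. Fibroblast genes had 0 higher and 2 lower, and neural progenitor genes 2 and 0. None of the markers in the table was at 0 in all libraries. However, 6 trophectoderm, 4 early mesoderm, 5 fibroblast and 4 neural progenitor markers had been listed. Those missing from the table did not enter the sums or this check. The part of these shifts in the values of the 80 genes was not tested. No change in the number of cells of a type is read from these sums. In such bulk samples, fewer cells of a type and less RNA per cell cannot be told apart.

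Thr and Cys are used differently. Mouse ES cells break down Thr through threonine dehydrogenase to glycine and acetyl-CoA, whereas Cys is the building block of glutathione and of iron-sulfur clusters and can also be made from methionine. The lack of either AA leaves its tRNAs uncharged, and uncharged tRNAs activate the kinase GCN2, which phosphorylates eIF2α and raises translation of the transcription factor ATF4 (the integrated stress response, ISR). The genes described here are those for which the mRNA was lower without Thr and higher without Cys within the limits given above.

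Because the selection used every unstarved, Thr-starved and Cys-starved value, the changes are given as a description and not as a test. For the 80 genes, the log2 ratio of means ranged from −1.96 to −0.50 without Thr, with a median of −0.73, and from 0.20 to 1.03 without Cys, with a median of 0.30. Over all 11527 genes above the mean threshold the medians were 0.01 and −0.06. Levels in Cys-starved cells were 1.68 to 4.81 times those in Thr-starved cells, with a median of 2.07. The Thr change was the larger of the pair in 77 genes and the Cys change in 3; the Cys change was the larger in 7 genes with scaling by library totals only, and in 14 when trends with GC content and transcript length were removed. The Thr log2 ratio was −1 or lower in 17 genes, whereas the Cys log2 ratio reached 0.4 in 16 genes. Only 4 genes, N4bp3, Synj2, Extl1 and Tmem179, combined a Thr log2 ratio of −1 or lower with a Cys log2 ratio of 0.4 or higher.

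**Figure D1:**
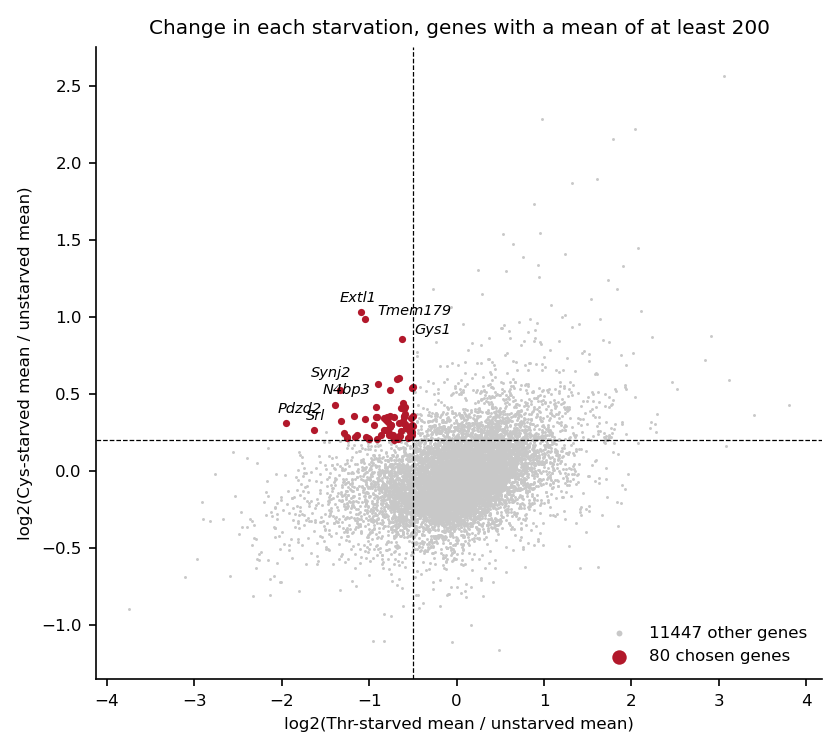
Each point is a gene with a mean of at least 200 normalized counts. The x axis gives the log2 ratio of Thr-starved to unstarved means and the y axis that of Cys-starved to unstarved means; dashed lines mark the limits of −0.5 and 0.2, and the 80 chosen genes (red) lie between −1.96 and −0.50 on x and between 0.20 and 1.03 on y.

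The libraries of each group gave similar values. Relative to the unstarved mean, the median of the 80 genes was −0.76, −0.73 and −0.72 (log2) in the 3 Thr-starved libraries and 0.29, 0.30 and 0.30 in the 3 Cys-starved libraries. The unstarved libraries had medians of −0.013, 0.011 and −0.001. The coefficient of variation between replicates had a median of 5.09% in Thr-starved, 3.53% in Cys-starved and 4.43% in unstarved cells over these genes. It was highest for Eppk1 in Cys-starved cells (25.6%) and for Zfand2b in Thr-starved cells (21.7%). The lowest raw count of any of the 80 genes in any library was 82.

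**Figure D2:**
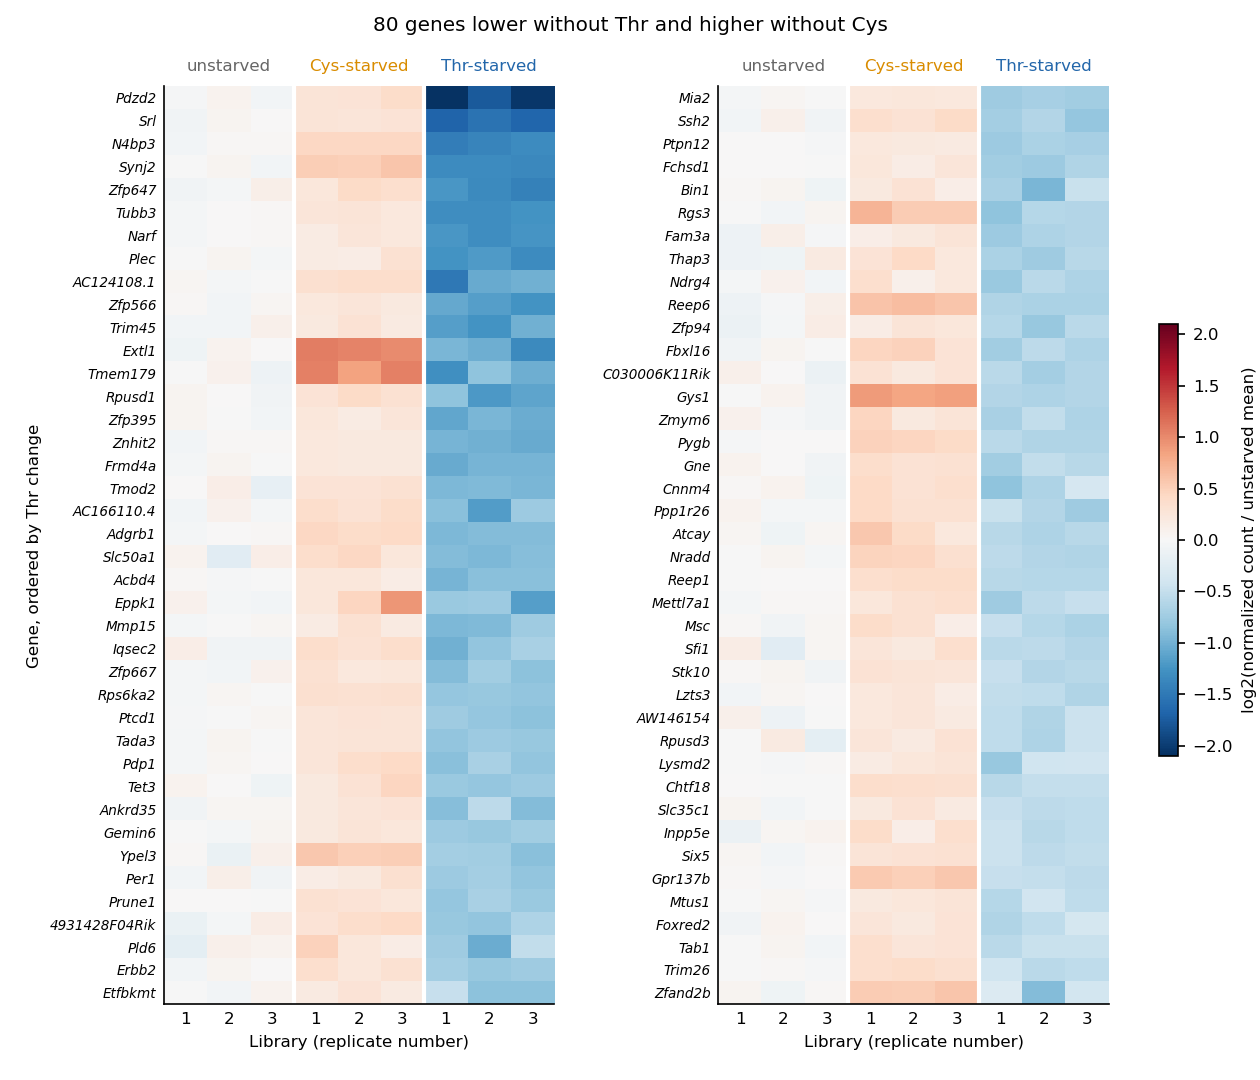
Heat map of the 80 genes (rows, ordered by Thr change) in the 9 libraries (columns). Colour gives the log2 ratio of a library's normalized count to the unstarved mean; the Thr-starved columns are blue throughout, from −2.07 to −0.28, and the Cys-starved columns are red throughout, from 0.11 to 1.07.

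Each library was also left out of the selection in turn. The libraries it was then compared with had taken part in the choice, so the outcome is a description and not an independent test. When the rule was applied without 1 Thr-starved library, it chose 76 to 83 genes, and the left-out library lay below every unstarved value for all of them. Without 1 Cys-starved library, 82 to 85 genes were chosen, and the left-out library lay above every unstarved value for 94.0% to 98.8% of them. The median log2 ratio of the left-out library to the unstarved mean was −0.76, −0.76 and −0.74 for Thr and 0.26, 0.27 and 0.28 for Cys. With 1 unstarved library left out, that library lay between the starved groups for 92.6% to 96.2% of the chosen genes. Of the original 80 genes, 69 to 77 were chosen again in these 9 rounds.

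The quasi-likelihood test of edgeR, adjusted over all 20143 genes tested, called 80 of the 80 genes lower without Thr, where it called 31.9% of all genes lower. It called 80 higher without Cys, against 17.5% of all genes, and 80 lower without Thr than without Cys, against 31.6%. Both of the first calls together applied to 3.2% of all genes tested. These counts follow from the choice of genes, since the rule used the same contrasts, and nothing is read from them. With the deposited size factors in place of TMM factors, the Cys calls over all genes moved from 3523 higher of 7313 to 2787 higher of 7573, and 76 of the 80 genes were called higher.

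The lowest Thr ratio belonged to Pdzd2 (ENSMUSG00000022197, chr15:12359711-12739924, minus strand, GRCm38), which encodes a protein with several PDZ domains. Its normalized counts were 436, 466 and 424 in unstarved, 530, 538 and 577 in Cys-starved and 105, 130 and 107 in Thr-starved libraries. The Thr-starved mean was 74.2% lower and the Cys-starved mean 24.1% higher than the unstarved mean, a 4.81-fold span that was the widest of the 80 genes. Srl (chr16:4480216-4541816, minus strand) encodes sarcalumenin, a calcium-binding protein of the sarcoplasmic reticulum. Its counts were 1067, 1171 and 1129 in unstarved, 1351, 1340 and 1364 in Cys-starved and 349, 382 and 354 in Thr-starved libraries. The Cys-starved values of Srl lay close together, whereas the Thr-starved mean was 67.8% lower than the unstarved mean.

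N4bp3 (chr11:51643063-51650842, minus strand), named for its binding to the ubiquitin ligase NEDD4, was among the more abundant of the 80 genes. It had 4498, 4763 and 4716 normalized counts in unstarved, 6292, 6302 and 6273 in Cys-starved and 1695, 1777 and 1875 in Thr-starved libraries. The changes were −1.39 without Thr and 0.43 without Cys (log2), and replicates differed little beside the gaps between groups. Synj2 (chr17:5941280-6044290, plus strand) encodes synaptojanin 2, an inositol 5-phosphatase that acts in endocytosis. Counts of 828, 870 and 802 in unstarved libraries compared with 1194, 1175 and 1242 without Cys and 332, 334 and 327 without Thr. This gene was thus 60.3% lower without Thr and 44.4% higher without Cys.

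Tubb3, the β-tubulin known as a neuronal marker, was measured at 6126, 6287 and 6390 counts in unstarved, 7474, 7577 and 7305 in Cys-starved and 2552, 2542 and 2634 in Thr-starved libraries. Plec encodes plectin, a large linker of intermediate filaments to the cell's other fibres and junctions, and had the highest mean of the 80 genes. Plec counts were 8149, 8514 and 7989 in unstarved, 9292, 9146 and 10286 in Cys-starved and 3448, 3604 and 3284 in Thr-starved libraries. The means of both genes were lower without Thr, by 58.9% for Tubb3 and 58.1% for Plec, and were 18.9% and 16.5% higher without Cys. Narf, whose product binds prelamin A, changed by −1.26 and 0.22 (log2), with 1074 to 1118 counts in unstarved, 1245 to 1311 in Cys-starved and 444 to 470 in Thr-starved libraries. The other genes of the 10 lowest Thr ratios were Zfp647 (−1.33 and 0.33), AC124108.1 (−1.17 and 0.36), annotated as protein coding, and Zfp566 (−1.16 and 0.23).

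The highest Cys ratio belonged to Extl1 (ENSMUSG00000028838, chr4:134356372-134383850, minus strand), a glycosyltransferase of the exostosin family, which builds heparan sulfate. Its counts were 189, 211 and 203 in unstarved, 423, 412 and 400 in Cys-starved and 103, 99.0 and 79.9 in Thr-starved libraries. The Cys-starved mean was 105% higher and the Thr-starved mean 53.2% lower than the unstarved mean. Tmem179, a transmembrane protein gene, followed with 174, 186 and 163 counts in unstarved, 364, 312 and 362 in Cys-starved and 71.1, 97.2 and 85.1 in Thr-starved libraries. Extl1 and Tmem179 were the only ones of the 80 genes with a log2 ratio of about 1 in both directions, at 1.03 and −1.10 for Extl1 and 0.99 and −1.04 for Tmem179.

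Gys1, the muscle-type glycogen synthase, which catalyses the rate-limiting step of glycogen synthesis, had the third-highest Cys ratio. Counts were 1919, 2016 and 1836 in unstarved, 3558, 3428 and 3496 in Cys-starved and 1258, 1228 and 1262 in Thr-starved libraries. The Cys-starved mean was 81.6% higher and the Thr-starved mean 35.1% lower, and in the deposited values Gys1, Gpr137b and Zfand2b were the 3 genes with a larger Cys than Thr change. Part of the Gys1 transcript overlaps Ruvbl2 on the opposite strand, which had a mean of 10177 normalized counts and changed by −0.03 without Thr and −0.04 without Cys. Gpr137b, a lysosomal membrane protein gene, changed by −0.51 and 0.54, and Zfand2b, whose product binds the proteasome through its AN1 zinc fingers, by −0.50 and 0.54. Reads of Gpr137b may be shared with Gpr137b-ps, a near-identical copy that matched 62.6% of its longest transcript and itself lay just outside the Thr limit (−0.48 and 0.56).

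Reep6 and Rgs3 were next by Cys ratio. Reep6 encodes a protein that shapes endoplasmic reticulum (ER) membranes, with counts of 904, 960 and 1065 in unstarved, 1478, 1527 and 1454 in Cys-starved and 627, 620 and 615 in Thr-starved libraries. Rgs3, which speeds GTP hydrolysis by G-protein subunits, had 214, 208 and 226 counts in unstarved, 355, 312 and 312 in Cys-starved and 121, 143 and 142 in Thr-starved libraries. Both were over 50% higher without Cys, by 52.2% and 51.2%. Eppk1, the plakin epiplakin, had counts of 1211, 1111 and 1092 in unstarved, 1336, 1549 and 2166 in Cys-starved and 659, 670 and 508 in Thr-starved libraries. The third Cys-starved library of Eppk1 stood above the other two, and without it the Cys log2 ratio was 0.34 in place of 0.57. Ypel3, of the yippee-like family, had 426, 378 and 450 counts in unstarved, 620, 591 and 595 in Cys-starved and 256, 252 and 229 in Thr-starved libraries. The gap to the unstarved values of Ypel3 was thus wide on both sides.

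**Figure D3:**
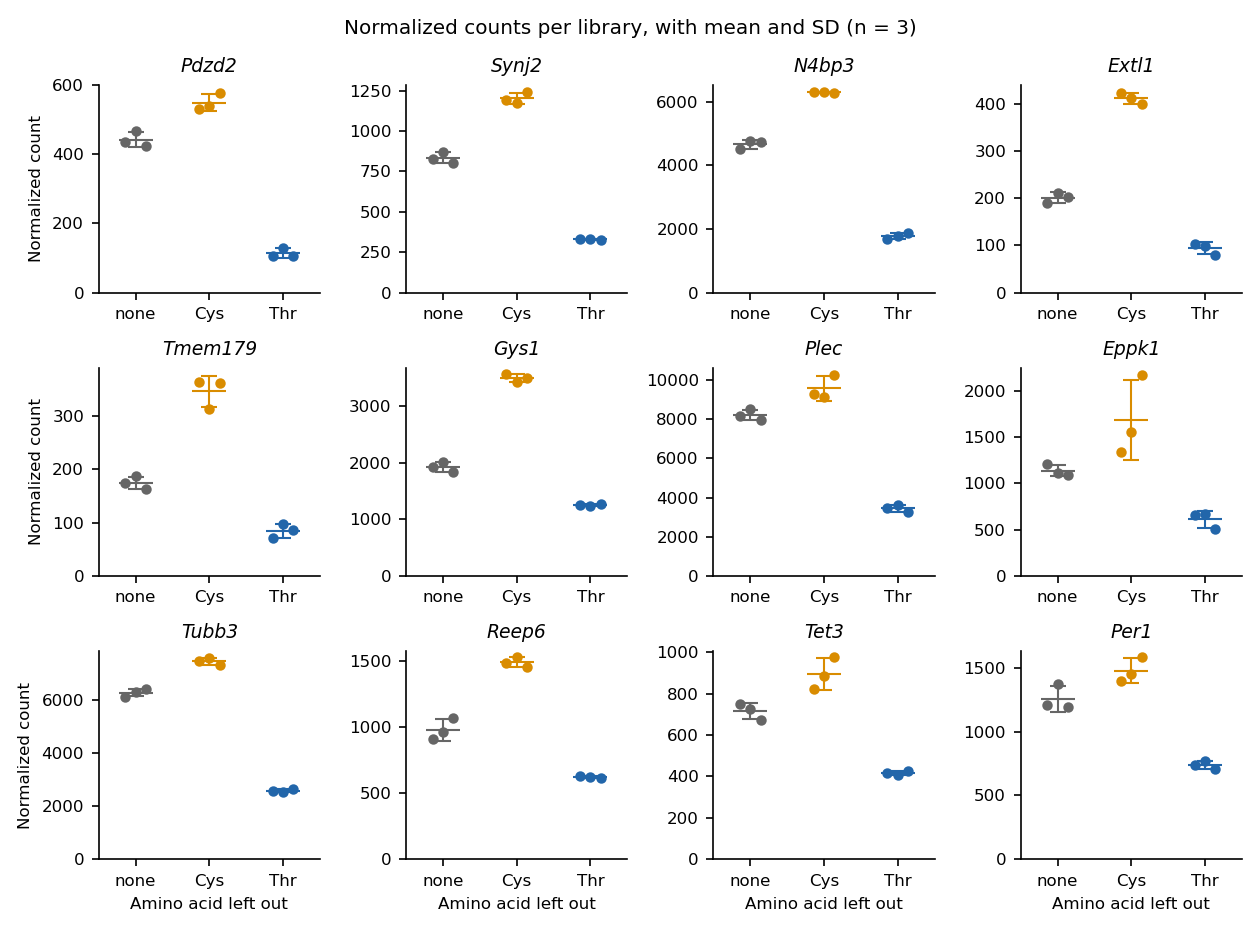
Normalized counts (y axis, from 0) of 12 of the genes in each library, grouped by the AA left out (x axis). Points are libraries, and the horizontal mark and bars give the mean and SD of 3 libraries. Extl1 and Tmem179 span from means of 94.0 and 84.5 without Thr to 412 and 346 without Cys, and the Cys-starved values of Eppk1 spread from 1336 to 2166.

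The genes nearest to the limits show how graded the selection was. Iqsec2 and Tmem179 passed the mean threshold at 210 and 202, whereas Zfp46 (mean 192, log2 ratios −1.05 and 0.26) and B230217C12Rik (mean 190, −1.41 and 0.33) did not. At the Thr limit, Zfand2b and Trim26 were inside, both at −0.50, and Gm5847 (−0.49) and Gpr137b-ps (−0.48) outside. At the Cys limit, Ptpn12 (0.20) and Acbd4 (0.21) were inside, and Epb41l4b (0.1985) and Rgs12 (0.198) were outside with Thr ratios of −0.50 and −1.02.

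Of 21 pathway and family lists, 5 held at least 1 of the 80 genes, and 10 of the 80 genes were on a list. The zinc finger list had 452 genes in the table, 360 of them above the mean threshold. It held Zfp395, Zfp566, Zfp647, Zfp667 and Zfp94, or 1.39% of the genes that passed, beside 0.694% over all genes. Zinc finger genes thus made up 6.25% of the 80 genes and 3.12% of annotated genes above the mean threshold. Their share was higher, at 9.54%, in genes that met only the Cys conditions. It was 2.05% in genes that met only the Thr conditions. On that list, edgeR called 226 genes higher and 120 lower without Thr, and 232 higher and 43 lower without Cys. The list's median log2 change, as fitted by edgeR, was 0.18 without Thr and 0.18 without Cys, beside −0.02 and 0.01 over all genes tested. The 5 zinc finger genes of the set, with log2 ratios of means from −1.33 to −0.65 without Thr, lay on the other side of 0 from the median of their list, as the choice of genes requires. Zfp647 had 346, 355 and 397 counts in unstarved, 432, 481 and 465 in Cys-starved and 157, 144 and 136 in Thr-starved libraries. Zfp566 had 607, 577 and 615 counts in unstarved, 700, 712 and 691 in Cys-starved and 285, 268 and 250 in Thr-starved libraries. Zfp395 and Zfp667 changed by −1.03 and −0.83 without Thr and by 0.22 and 0.27 without Cys.

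Trim45 and Trim26 came from 127 listed ubiquitin ligases of the RNF and TRIM families, of which 39 were called lower without Thr and 44 higher without Cys. Trim45 had 309, 307 and 346 counts in unstarved, 369, 394 and 367 in Cys-starved and 143, 135 and 159 in Thr-starved libraries. Slc50a1, a sugar transporter of the SWEET family, came from 240 solute carriers, of which 110 were called lower without Thr and 46 higher without Cys. Its counts of 279, 224 and 290 in unstarved libraries compared with 341, 360 and 313 without Cys and 141, 138 and 143 without Thr. The unstarved values were the more scattered ones for Slc50a1, and the second was the lowest of them.

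Tet3, which oxidizes 5-methylcytosine in DNA, was the gene chosen from 78 chromatin enzymes and readers, of which 29 were called lower without Thr and 17 higher without Cys. Tet3 had 749, 723 and 674 counts in unstarved, 821, 883 and 977 in Cys-starved and 415, 406 and 423 in Thr-starved libraries. Per1, a repressor of the circadian clock, was the gene from 20 clock genes, of which 7 were called lower without Thr and 5 higher without Cys. Per1 counts were 1209, 1376 and 1194 in unstarved, 1401, 1451 and 1591 in Cys-starved and 739, 772 and 711 in Thr-starved libraries. The lowest Cys-starved value of Per1 exceeded the highest unstarved value by little, at 1401 against 1376. Its relative Per3 met every other condition and missed only the Cys limit, with ratios of −0.57 and 0.17. Per2, under the mean threshold at 169, changed by −0.16 without Thr and 0.66 without Cys.

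The other lists held none of the 80 genes. Over all genes tested, edgeR called 31.1% higher without Thr and 18.8% lower without Cys, beside the 31.9% lower and 17.5% higher given above. Among these lists, the list of the ISR and ATF4 targets had 49 of 61 tested genes called higher without Thr and 55 higher without Cys, and 5 called lower without Thr and higher without Cys. NRF2 targets, the antioxidant genes, had 20 of 24 called lower without Thr and 17 lower without Cys. Sterol and fatty acid synthesis had 31 of 38 and 20 of 38 called lower. Targets of p53, the DNA damage regulator, had 21 of 26 called higher without Thr and 14 of 26 lower without Cys. Of 85 cytosolic ribosomal protein genes, 57 were called lower without Thr and 74 lower without Cys.

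Several of the 80 genes belong to small families, which were grouped after the genes were known. Log2 values here and below are ratios of means of the deposited normalized counts. An edgeR p beside such a value tests the change fitted with TMM factors, which can differ. For Gaa without Cys, for example, the ratio of means was 0.08 and the fitted change 0.12. Tubb3 is 1 of 6 β-tubulins above the mean threshold. Tubb4b, Tubb5 and Tubb6 were lower without Thr (−0.99, −0.65 and −0.39) and also lower without Cys (−0.40, −0.33 and −0.16), with edgeR adjusted p of 1.45e-11, 1.69e-11 and 0.00419 for Cys. Tubb2a and Tubb2b changed by −0.11 and −0.14 without Cys. Plec and Eppk1 are 2 of 5 plakins above the threshold. Of the others, Dst rose without Thr by 0.95 (edgeR adjusted p = 1.26e-05), Dsp fell by 0.37 (8.79e-06), and Macf1 changed by 0.03 (0.886). Under the mean threshold, Evpl changed by −1.21 without Thr (edgeR adjusted p = 4.99e-09) and Ppl by −0.50 (0.000136). Dst, Macf1, Dsp, Plec and Eppk1 all had their highest Cys-starved value in the third library, and the part of that library in the plakin values was not tested.

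Among REEP genes, Reep1 was chosen by the same rule as Reep6. It had 305, 309 and 309 counts in unstarved, 393, 400 and 400 in Cys-starved and 206, 203 and 203 in Thr-starved libraries. Reep3, in contrast, rose by 1.07 without Thr (edgeR adjusted p = 2.51e-14). The RPUSD genes encode pseudouridine synthases, enzymes that isomerize uridine in RNA. Rpusd1 had 472, 459 and 433 counts in unstarved, 557, 601 and 566 in Cys-starved and 254, 197 and 211 in Thr-starved libraries, whereas Rpusd3 changed less, by −0.54 and 0.25. Both remaining RPUSD genes above the threshold were higher without Thr, Rpusd2 by 0.28 (1.35e-06) and Rpusd4 by 0.29 (6.11e-07). Tet1 and Tet2, the other TET genes, also rose without Thr, by 0.41 (2.21e-06) and 0.18 (0.00019), whereas Tet3 was lower by 0.79.

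**Figure D4:**
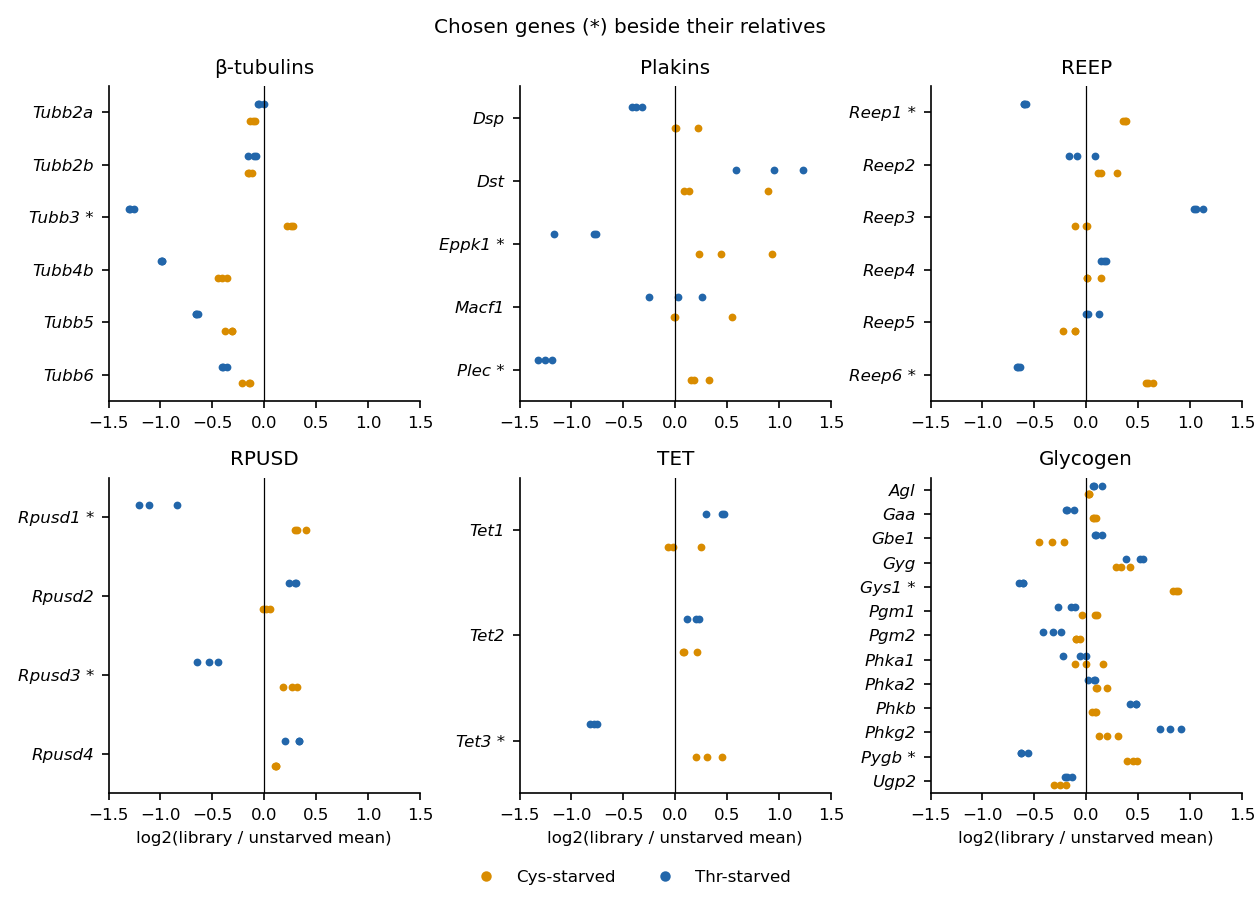
Log2 ratio of each starved library to the unstarved mean (x axis) for genes of 6 families with a mean of at least 200 (y axis; asterisks mark the chosen genes). Points are libraries, 3 per starvation; Tubb3 is the β-tubulin with Cys-starved values right of 0, and Tet3, Rpusd1 and Rpusd3 lie left of 0 without Thr where their relatives lie right.

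In glycogen metabolism, the set held Gys1 and Pygb, the brain form of glycogen phosphorylase, which breaks glycogen down. Pygb had 759, 777 and 775 counts in unstarved, 1080, 1050 and 1012 in Cys-starved and 521, 497 and 497 in Thr-starved libraries. That these enzymes of synthesis and breakdown share their directions follows from the choice of genes, and nothing is read from it. Of 25 glycogen genes tested, edgeR called 9 lower and 6 higher without Thr, and 8 higher and 2 lower without Cys. Gaa was also called lower without Thr (−0.17, edgeR adjusted p = 0.000313) and higher without Cys (0.08, 0.0107), but fell short of both limits. Of 13 glycogen genes above the threshold, Gyg, the primer glycogenin, rose in both starvations, by 0.48 (edgeR adjusted p = 2.38e-05) and 0.35 (0.000532). The phosphorylase kinase subunit gene Phkg2 rose by 0.81 without Thr (5.55e-10). The branching enzyme gene Gbe1 fell by 0.33 without Cys (0.00312), and its Thr change of 0.11 did not pass the test (0.213).

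Other metabolic genes of the set were Pdp1, the phosphatase that activates pyruvate dehydrogenase (−0.79 and 0.35), Gne, the key enzyme of sialic acid synthesis (−0.61 and 0.33), and Slc35c1, which carries GDP-fucose into the Golgi (−0.52 and 0.24). Acbd4, an acyl-CoA binding protein gene, and Etfbkmt, which methylates the electron transfer flavoprotein, were 46.7% and 39.7% lower without Thr. Their Cys-starved means were 15.5% and 16.9% higher than the unstarved means. Fam3a, Prune1 and Mettl7a1 were at −0.68, −0.76 and −0.59 without Thr, with Cys ratios of 0.21, 0.29 and 0.31. Of the Mettl7a1 transcript, 78.3% matched Mettl7a2, Mettl7a3 or Methig1 at 95% identity or more, so its reads may be split among them.

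Signalling genes of the set included Erbb2, the ERBB receptor with no known ligand of its own. Erbb2 had 690, 751 and 723 counts in unstarved, 918, 852 and 897 in Cys-starved and 439, 417 and 428 in Thr-starved libraries. Its partner receptor gene Erbb3 fell by 1.26 without Thr (edgeR adjusted p = 1.66e-15) and changed by −0.08 without Cys (0.625), whereas Egfr rose in both, by 0.99 and 0.47. Rps6ka2, which encodes the kinase RSK3, had 2955, 3130 and 2993 counts in unstarved, 3836, 3786 and 3835 in Cys-starved and 1727, 1753 and 1710 in Thr-starved libraries. Rps6ka1 and Rps6ka4 were lower without Thr, by 0.72 and 1.45, and their Cys ratios were −0.19 and −0.01. The other 3 Rps6ka genes rose without Thr, Rps6ka3 by 0.29 (edgeR adjusted p = 2.48e-07), Rps6ka5 by 0.46 (5.75e-08) and Rps6ka6 by 0.13 (0.000701). The receptor gene Adgrb1, which takes part in the uptake of dying cells, had 1294, 1327 and 1351 counts in unstarved, 1793, 1738 and 1768 in Cys-starved and 687, 705 and 701 in Thr-starved libraries. Its relative Adgrb2 was lower by 1.00 without Thr and changed by −0.16 without Cys (edgeR adjusted p = 0.337). The phosphatase gene Ptpn12 changed by −0.71 and 0.20, the TAK1 partner Tab1 by −0.50 and 0.29, and the ARF exchange factor Iqsec2 by −0.84 and 0.35.

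Genes of the cytoskeleton and of membrane shape were also among the 80, beside the plakins and Tubb3. Tmod2, which caps actin filaments, had 657, 718 and 578 counts in unstarved, 798, 792 and 810 in Cys-starved and 340, 341 and 333 in Thr-starved libraries. Ssh2, which activates the actin-severing protein cofilin, changed by −0.71 and 0.35; its relative Ssh1 was lower without Thr by 0.64 and changed by −0.11 without Cys (edgeR adjusted p = 0.341). The polarity scaffold gene Frmd4a changed by −1.01 and 0.21, the microtubule-associated Mtus1 by −0.51 and 0.24, and the centrin-binding Sfi1 by −0.57 and 0.28. Sfi1 shares exons on its own strand with Drg1, whose mean of 5608 is higher than its own of 1025, and its unstarved values of 1188, 909 and 1101 were the most scattered of the 80 genes in that group. Inpp5e, a 5-phosphatase of the primary cilium, changed by −0.52 and 0.29 and overlaps Pmpca on the opposite strand, which had a mean of 4942. Synj1 rose in both starvations, by 0.79 (3.8e-12) and 0.45 (6.51e-08), unlike Synj2. Bin1 and Fchsd1, which bend membranes through BAR domains, changed by −0.69 and −0.70 without Thr and 0.22 and 0.21 without Cys.

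Among nuclear factors, Tada3, a subunit of the SAGA and ATAC acetyltransferase complexes, had 3760, 3995 and 3817 counts in unstarved, 4612, 4674 and 4678 in Cys-starved and 2164, 2279 and 2210 in Thr-starved libraries. The homeobox gene Six5 changed by −0.51 and 0.30, the bHLH repressor Msc by −0.58 and 0.28, Thap3 by −0.66 and 0.31, and Zmym6 by −0.61 and 0.31. Znhit2, a single-exon gene whose product acts in the assembly of RNA-protein complexes, changed by −1.02 and 0.21. In RNA processing, Gemin6 of the SMN complex changed by −0.77 and 0.23, and the mitochondrial RNA-binding Ptcd1 by −0.81 and 0.27. For Gemin6, 44.2% of the transcript matched copies elsewhere, Gemin6-ps among them, and Ptcd1 overlaps the opposite-strand gene Bud31. In the secretory pathway, Mia2, needed for the export of large cargo from the ER, had 3549, 3735 and 3627 counts in unstarved, 4262, 4308 and 4255 in Cys-starved and 2164, 2246 and 2188 in Thr-starved libraries. The ER-associated Foxred2 changed by −0.51 and 0.25 and the F-box gene Fbxl16 by −0.64 and 0.41.

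Mmp15, a membrane-anchored matrix metalloproteinase gene, changed by −0.87 and 0.23 and Pld6, an enzyme of the mitochondrial surface, by −0.75 and 0.30. The kinase gene Stk10 changed by −0.56 and 0.28, the magnesium transporter gene Cnnm4 by −0.61 and 0.36, Atcay, which encodes caytaxin, by −0.60 and 0.40, and Nradd by −0.59 and 0.42. For Ankrd35, 4931428F04Rik, Ndrg4, Ppp1r26, Lzts3 and AW146154 the Thr ratios were −0.77, −0.76, −0.66, −0.60, −0.56 and −0.54. Their Cys ratios were 0.25, 0.36, 0.23, 0.35, 0.22 and 0.22. Zfp94 changed by −0.65 and 0.23, AC166110.4 by −0.93 and 0.36 and C030006K11Rik by −0.64 and 0.26.

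The 80 genes lay on 20 chromosomes, with 9 each on chromosomes 11 and 15. On chromosome 15 they made up 1.98% of the genes above the mean threshold and on chromosome 11 they made up 1.03%. Eppk1, Plec, C030006K11Rik and Zfp647 lay within 824 kb of chromosome 15 (chr15:76101481-76925448), all on the minus strand. This interval held 35 genes above the mean threshold. All 3 Thr-starved values lay below every unstarved value in 24 of them, and all 3 Cys-starved values above every unstarved value in 10, the 4 chosen genes included. Over all 11527 genes above the threshold these shares were 39.6% and 22.1%, and no difference of the interval from other genes was tested. The interval's median log2 ratio was −0.42 without Thr and −0.04 without Cys. Zfp251, close to Zfp647, missed the Cys limit at 0.198 with a Thr ratio of −0.91, while Foxh1 in the same interval was higher without Thr, at 1.05.

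**Figure D5:**
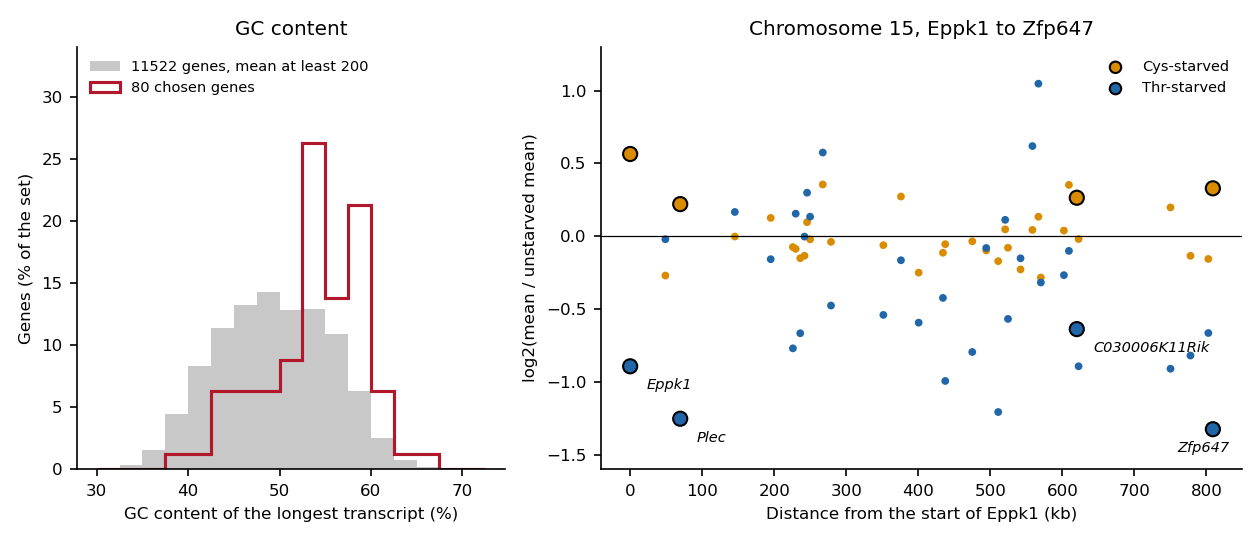
Left, distribution of GC content of the longest transcript (x axis, percent) for 11522 annotated genes above the mean threshold (grey) and for the 80 genes (red outline), as percent of each set (y axis); medians are 49.4% and 54.5%. Right, log2 ratios without Thr and without Cys (y axis) for 35 genes against their distance from the start of Eppk1 in kb (x axis), with the 4 chosen genes as large outlined points.

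The closest pair was Chtf18, part of a clamp loader for DNA replication, and Rpusd1, which lie head to head on chromosome 17 with 250 bases between them (chr17:25718926-25727419, minus strand, and chr17:25727670-25731464, plus strand). Chtf18 had 3754, 3731 and 3715 counts in unstarved, 4796, 4750 and 4690 in Cys-starved and 2484, 2636 and 2653 in Thr-starved libraries. The Thr ratio was −0.53 for Chtf18 and −1.04 for Rpusd1, and the Cys ratios were 0.35 and 0.34. Tmod2 and Lysmd2 are likewise head to head on chromosome 9, 14.4 kb apart, with Thr ratios of −0.95 and −0.53. Tada3 and Rpusd3 are separated by 37.4 kb on chromosome 6.

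RefSeq promoter windows (GRCm38.p6, 250 bases before to 50 after the annotated start) were found for 57 of the 80 genes, or fewer than 80%, so a comparison of motif shares between the set and other genes is void. The windows of the head-to-head pair are shown because they share 199 bases, read from opposite strands. Those of Narf and Gys1 are shown because each holds the CCAAT box 4 times, as does Chtf18; at least 4 copies occur in 1.06% of all 32851 windows. Trim26 and Zfand2b hold the palindromic cAMP response element TGACGTCA, which includes the half-site CGTCA, and Slc50a1 holds TGATGCAA, a form of the element bound by ATF4. Searched on both strands, CCAAT occurs in 37.4% of all windows, TGACGTCA in 1.79% and TGATGCAA in 0.895%. Capitals mark these 3 motifs in either orientation, so that CCAAT on the other strand reads ATTGG. The positions are chr17:25727366-25727665 (minus strand, Chtf18), chr17:25727467-25727766 (plus, Rpusd1), chr11:121236986-121237285 (plus, Narf), chr7:45434589-45434888 (plus, Gys1), chr17:36836896-36837195 (plus, Trim26), chr1:75168396-75168695 (plus, Zfand2b) and chr3:89270521-89270820 (minus, Slc50a1).
Chtf18: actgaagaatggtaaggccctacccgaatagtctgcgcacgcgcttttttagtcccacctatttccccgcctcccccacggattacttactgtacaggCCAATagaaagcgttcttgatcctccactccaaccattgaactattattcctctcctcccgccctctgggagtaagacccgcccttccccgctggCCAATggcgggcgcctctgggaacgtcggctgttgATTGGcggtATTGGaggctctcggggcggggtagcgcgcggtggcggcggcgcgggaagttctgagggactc
Rpusd1: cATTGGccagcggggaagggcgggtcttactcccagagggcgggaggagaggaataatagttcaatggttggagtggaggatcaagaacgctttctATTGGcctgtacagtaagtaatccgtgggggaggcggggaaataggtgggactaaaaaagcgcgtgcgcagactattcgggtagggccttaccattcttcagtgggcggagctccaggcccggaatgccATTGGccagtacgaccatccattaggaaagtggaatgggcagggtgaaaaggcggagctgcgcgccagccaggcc
Narf: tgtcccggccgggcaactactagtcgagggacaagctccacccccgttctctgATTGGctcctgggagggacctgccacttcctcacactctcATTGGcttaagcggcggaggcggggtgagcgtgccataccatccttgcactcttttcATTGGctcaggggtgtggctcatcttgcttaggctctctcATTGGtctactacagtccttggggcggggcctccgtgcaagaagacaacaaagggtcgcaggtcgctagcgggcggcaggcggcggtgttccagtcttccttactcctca
Gys1: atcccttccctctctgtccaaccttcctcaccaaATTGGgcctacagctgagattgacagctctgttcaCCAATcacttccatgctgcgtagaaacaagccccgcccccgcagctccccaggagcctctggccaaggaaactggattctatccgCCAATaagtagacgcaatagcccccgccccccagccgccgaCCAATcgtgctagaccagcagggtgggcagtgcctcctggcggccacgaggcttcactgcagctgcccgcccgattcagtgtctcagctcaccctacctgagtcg
Trim26: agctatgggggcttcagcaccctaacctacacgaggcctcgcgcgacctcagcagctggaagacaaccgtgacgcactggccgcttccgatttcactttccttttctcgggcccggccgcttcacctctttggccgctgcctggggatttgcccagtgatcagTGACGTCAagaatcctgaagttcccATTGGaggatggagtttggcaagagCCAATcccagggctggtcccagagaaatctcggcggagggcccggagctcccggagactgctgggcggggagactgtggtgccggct
Zfand2b: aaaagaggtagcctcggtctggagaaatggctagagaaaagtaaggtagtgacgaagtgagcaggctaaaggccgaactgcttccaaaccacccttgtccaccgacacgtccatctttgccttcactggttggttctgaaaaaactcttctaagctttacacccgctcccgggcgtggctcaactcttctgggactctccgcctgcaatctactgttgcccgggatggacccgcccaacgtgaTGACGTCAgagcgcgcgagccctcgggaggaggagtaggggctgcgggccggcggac
Slc50a1: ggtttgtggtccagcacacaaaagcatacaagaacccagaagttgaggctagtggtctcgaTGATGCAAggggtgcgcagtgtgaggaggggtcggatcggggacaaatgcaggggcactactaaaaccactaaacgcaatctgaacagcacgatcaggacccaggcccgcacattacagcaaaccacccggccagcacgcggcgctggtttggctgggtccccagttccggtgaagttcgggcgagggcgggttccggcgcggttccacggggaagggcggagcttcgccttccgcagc

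The first base of the element TGACGTCA was 87 bases before the start in Trim26 and 7 bases before it in Zfand2b. Both genes were near the Thr limit (−0.50), and their Cys ratios were 0.36 and 0.54. Cnnm4 and Gemin6 held the same element. In Gys1 the CCAAT boxes began 216, 181, 96 and 55 bases before the start, and in Narf 197, 157, 100 and 60 bases before it. Gys1 and Narf differed in the size of their changes, at 0.86 and 0.22 without Cys and −0.62 and −1.26 without Thr. In Slc50a1 the element TGATGCAA began 189 bases before the start. These matches describe the letters of the windows and not bound sites.

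Of the 80 genes, 79 were annotated as protein coding and 1, AC166110.4, as a long noncoding RNA. Reads of AC166110.4 may be shared with other genes. Matches to Rps6ka2 or Sod2 covered 100% of its transcript, and matches to AC166110.4 or Sod2 covered 57.4% of Rps6ka2. These shares count stretches at or above the identity limit of the search for copies. Whether mismatches within them separate the reads was not tested. The longest transcripts of the set had a median GC content of 54.5%, against 49.4% for 11522 annotated genes above the mean threshold and 49.4% for the protein-coding genes among them. A GC content over 55% was found in 35 of the 80 genes (43.8%) and in 20.7% of the 11522. Genes that met only the Thr conditions had a median GC content of 53.3%, and those that met only the Cys conditions 48.3%. The median transcript length was 3710 bases in the set and 3508 bases in protein-coding genes above the threshold. Single-exon genes made up 3 of 80, or 3.75%, beside 5.56% of those protein-coding genes.

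When trends with GC content and transcript length were removed from each library, the 80 genes all kept a negative Thr and a positive Cys ratio, with medians of −0.59 and 0.28. The rule then chose 64 genes, of which 49 were among the 80. Of the 31 no longer chosen, 26 were above the Thr limit of −0.5, among them Gys1, Per1, Reep6, Ypel3 and Chtf18, and 5 were below the Cys limit of 0.2, among them Plec at 0.12, with Fchsd1 past both. Tmem179 kept ratios of −0.80 and 0.99 and was lost by its mean of 195, under the threshold of 200. Conversely, Pdzd2, Srl, N4bp3, Synj2, Tubb3, Extl1 and Tet3 were chosen again. The Thr log2 ratio moved from −0.53 to −0.27 for Chtf18, from −0.65 to −0.34 for Reep6 and from −0.62 to −0.46 for Gys1. The part of base composition in the choice of genes was not tested beyond this.

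Exons of 55 of the 80 genes overlapped no other annotated gene, 10 shared exon bases with a gene on the same strand and 18 with a gene on the opposite strand, some with both. The strand setting of the counting is not given in the sources used here, so reads in opposite-strand overlaps cannot be assigned with certainty. Such overlaps with a gene of higher mean were those of Gys1 with Ruvbl2, Inpp5e with Pmpca and Ptcd1 with Bud31. Mindy1, which overlaps Prune1, had a mean of 2856 beside 2880 for Prune1 and changed by −0.65 without Thr and 0.08 without Cys. Mien1, which overlaps Erbb2, had a mean of 331 and ratios of 0.11 and −0.08, unlike those of Erbb2 (−0.75 and 0.30).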

How the data were processed

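Poly(A) mRNA was sequenced from 3 unstarved, 3 Thr-starved and 3 Cys-starved samples of E14 ES cells. Per the labels and the methods of the study, the authors mapped paired-end reads to GRCm38 with STAR 2.7.4a, and deposited raw counts per gene made with HTSeq; the strand setting is not given in the sources used here. The second deposited table, of unit signal (normalized counts), holds the same counts divided by 1 DESeq2 size factor per library, which was checked on the values. Of raw counts from 1 to 20, 67.8% were even, so a count is not an independent fragment.

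The rule was applied to the normalized counts. The 80 genes, gene lists, tests and alternatives were chosen with earlier results of these data known. The raw counts of 20143 genes with at least 1 count were tested in R 4.3.3 with edgeR 4.0.16 (TMM factors, quasi-likelihood F test over all 9 libraries, Benjamini-Hochberg adjustment, threshold 0.05). Alternatives were DESeq2 1.42.0, RLE or deposited size factors, filterByExpr, fits of 2 groups, a replicate block and each library left out; for the rule, other limits. Removal of GC and length trends by lowess (statsmodels 0.14.6), and the count of genes with the larger Cys change under other scalings, were added after seeing the data. On simulated counts for Thr-starved against unstarved libraries (20189 genes), edgeR recovered 83 of 100 genes changed by a log2 of 0.5 and 99 of 100 changed by 1, with 8 false calls. The simulation changed 200 genes and gave every gene the same spread between replicates. In the data, 12689 genes were called for Thr against unstarved, so these recovery and error counts need not hold there. The labels do not say that replicates came from separate cultures, so p-values measure only the spread between these samples, which may be technical.

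Genes were named by rule: the 10 lowest Thr and 10 highest Cys ratios, the 6 highest means, up to 4 genes per list, and the 2 genes on each side of each limit. Members of gene families and functional groups outside this rule were named after their values were seen. Gene models were those of GENCODE M21 (GRCm38), which holds 20161 of the 20189 identifiers; structure was taken from the longest transcript. Copies were sought with BLAST 2.17.0+ at 95% identity over 100 bases. Protein sequences were not used here.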

Additional observations from a re-analysis of the deposited data

How the results depend on the processing

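The count of chosen genes was 80 and stayed within 1.5 times of it with TMM scaling (114), a mean of at least 100 (113), no condition on single values (87), edgeR calls in place of that condition (87) and GC and length trends removed (64); it was 38 with a mean of at least 500 and 4 with log2 limits of −1 and 0.4. Leaving out a library gave 76 to 85 genes, of which 69 to 77 were among the 80. The median Thr log2 ratio of −0.73 became −0.75 with library totals only and −0.59 with the trends removed, and ran from −0.74 to −0.71 without each library. The median Cys log2 ratio of 0.30 became 0.34 with TMM, 0.34 with RLE, 0.40 with library totals and 0.28 with the trends removed, and ran from 0.28 to 0.30 without each library. The size of the Cys ratio thus depends on the scaling; the median of all genes above the mean threshold moves by the same shift, from −0.06 in the deposited scale to −0.02 with TMM and 0.05 with library totals.

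Above a mean of 500, single-exon genes made up 15.8% of all genes (17.1% above 200) and zinc finger genes 2.82% (3.12% above 200). For 64 values of named genes, 832 recomputed values kept their direction, and 45 of them moved by more than the replicate SD. In the fits over all genes, every alternative count lay within 1.5 times of the first, with 12689, 7313 and 12488 genes called for Thr against unstarved, Cys against unstarved and Thr against Cys. The Cys calls among the 80 genes ran from 73 to 78 without each library, were 76 with the deposited size factors and 79 with DESeq2.

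Replicate numbers did not pair the samples: the correlations of same-numbered deviations ran from −0.07 to 0.10, from −0.07 to −0.04 and from −0.23 to −0.03 in the 3 pairs of groups. With a replicate block, 12488, 7063 and 12334 genes were called in the 3 comparisons, and 80 of the 80 genes in each.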
